A study of Arabidopsis thaliana with 48 samples.

Results

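Cytosolic ribosomal proteins are the protein components of the ribosomes that translate nuclear messenger RNAs, and 55 genes for them are described here out of 33602 targets in the deposited table. The genes were taken by their locus IDs, with no cutoff on a measured value, but the list was chosen with earlier results of these data known. Of the 55, 34 encode proteins of the large subunit and 21 proteins of the small subunit. They belong to 24 protein families, of which 4 have 1 gene among the 55 and 20 have several paralogs. The RefSeq product name calls the gene a ribosomal protein for 52 of the 55.

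Shoots and roots of Arabidopsis thaliana were profiled by RNA-seq from seedlings 18 days old, grown on agarose plates at full or low sulfate. The genotypes were eil3 eil1 (a double mutant), eil3 (a T-DNA line in AT1G73730, the EIL3 gene also called SLIM1), eil1 (a T-DNA line in AT2G27050, the EIL1 gene) and the wild-type accession Col-0. Low sulfate (-S) was 0.015 mM MgSO4 with 0.75 mM MgCl2, and full sulfate (+S) was 0.75 mM MgSO4, so the -S plates differed from the +S plates in chloride as well as in sulfate. Each of the 16 combinations of genotype, sulfate level and organ had 3 biological replicates, which gave 48 libraries of 26615772 to 38269946 estimated counts. The study asks what SLIM1 and EIL1 do at low sulfate. EIL3 and EIL1 belong to a family of plant transcription factors, and SLIM1 is known as a regulator of the response to sulfur limitation.

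A ribosome holds 1 copy of nearly every ribosomal protein, apart from the stalk proteins, and in Arabidopsis each protein is encoded by several paralogous genes. Transcription of these genes is generally high in dividing and growing tissue, and the TOR kinase pathway, which senses nutrient supply, acts on both ribosome synthesis and translation. Many plant ribosomal protein promoters carry site II elements and telo-boxes, short motifs also found in promoters of other genes that are active in dividing cells. In bulk tissue, fewer cells of a type and less RNA per cell cannot be told apart.

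The labels of the mutants were checked against the transcripts of the targeted genes. EIL1 averaged 26.96 CPM (CPM are counts scaled to a common library size, here by TMM normalization) in eil3 eil1 -S shoots and 92.4 CPM in eil1 -S shoots, against 105 CPM in Col-0 -S shoots. EIL3 averaged 29.97 CPM in eil3 eil1 -S shoots and 19.2 CPM in eil3 -S shoots, against 21.9 CPM in Col-0 -S shoots. Transcript levels over a whole T-DNA gene do not show where it is interrupted. In these shoots EIL1 in the libraries labelled eil1 and EIL3 in those labelled eil3 or eil3 eil1 were close to or above Col-0, whereas EIL1 was low in those labelled eil3 eil1. In -S roots EIL3 averaged 21.2 CPM in eil3 eil1 and 14.8 CPM in eil3, against 22.2 CPM in Col-0, and EIL1 averaged 19.5 CPM in eil3 eil1 and 43.0 CPM in eil1, against 55.9 CPM in Col-0. The names below are those of the labels. Photosynthesis transcripts also differed between the shoot groups, and the summed level of 14 green tissue markers, photosynthesis genes far higher in shoots than in roots, is given beside the results on shoots. In roots, 1 eil1 +S library had 2932 CPM summed over 14 green tissue markers, against 768 and 1050 CPM in the others of its group.

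Sequence next to the gene start is shown for the members with the largest and the smallest change in eil3 eil1 shoots, and for the RPS18 family, whose 3 genes encode the same 152-residue protein. Each line gives the stretch just before the annotated gene start, at most 120 bases, 5′ to 3′ on the strand of the gene, from the RefSeq annotation of TAIR10.1. Capitals mark a site II element (TGGGCC or TGGGCT on either strand) or a telo-box (AAACCCTA on either strand). RPP0A is from chr2:16710773-16710892 (minus strand), RPL11C from chr4:10302074-10302162 (plus strand), RPS18A from chr1:8067791-8067863 (plus strand), RPS18B from chr1:12371555-12371674 (minus strand) and RPS18C from chr4:6173592-6173711 (plus strand).
RPP0A: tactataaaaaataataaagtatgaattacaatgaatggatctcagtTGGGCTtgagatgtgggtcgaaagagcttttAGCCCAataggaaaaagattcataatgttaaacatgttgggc
RPL11C: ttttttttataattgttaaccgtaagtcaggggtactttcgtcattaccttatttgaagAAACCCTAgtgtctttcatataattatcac
RPS18A: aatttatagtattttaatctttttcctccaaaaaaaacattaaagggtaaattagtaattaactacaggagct
RPS18B: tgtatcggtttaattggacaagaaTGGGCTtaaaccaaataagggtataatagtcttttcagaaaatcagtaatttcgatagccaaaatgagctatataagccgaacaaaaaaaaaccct
RPS18C: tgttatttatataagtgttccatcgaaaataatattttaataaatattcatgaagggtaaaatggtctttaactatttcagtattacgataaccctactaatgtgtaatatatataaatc
The RPP0A stretch holds 2 site II elements, the RPL11C stretch 1 telo-box and the RPS18B stretch 1 site II element. No match to either motif lies in the RPS18A and RPS18C stretches, although these genes encode the same protein as RPS18B.

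All 55 genes rose at low sulfate in eil3 eil1 shoots, and most of them did not in shoots of the other genotypes. The summed level of the 55 genes was 22685, 19184 and 21063 CPM in the eil3 eil1 -S shoots, against 12103, 10869 and 11964 CPM in the eil3 eil1 +S shoots. Every -S library of that genotype thus lay above every +S library. In eil3 shoots the sums were 11829, 12550 and 13422 CPM at -S, against 12899, 11509 and 13686 CPM at +S, and the libraries overlapped. In eil1 shoots the sums were 10268, 9543 and 9616 CPM at -S, against 10372, 11443 and 11679 CPM at +S. In Col-0 shoots the sums were 9581, 10072 and 10301 CPM at -S, against 12047, 11632 and 11464 CPM at +S. By these TMM-scaled sums, every -S library of both genotypes lay below every +S library of its genotype. Summed as TPM (counts divided by target length and scaled to the same total in every library), the -S and +S libraries overlapped in both genotypes. As a share of all estimated counts, the 55 genes made up 2.30 ± 0.17 percent of eil3 eil1 -S shoot libraries and 1.13 ± 0.08 percent of eil3 eil1 +S shoot libraries (SD, n = 3 each). In Col-0 shoots the share was 1.01 ± 0.03 percent at -S and 1.08 ± 0.05 percent at +S (SD, n = 3 each). The share in eil3 shoots was 1.38 ± 0.12 percent at -S and 1.19 ± 0.08 percent at +S (SD, n = 3 each). By this share every eil3 -S library lay above every eil3 +S library, unlike by the TMM-scaled sums. For eil1 shoots it was 0.99 ± 0.05 percent at -S and 1.08 ± 0.07 percent at +S (SD, n = 3 each), and the libraries overlapped. With 3 libraries against 3, an exact permutation test of such a sum cannot give a p below 0.05. The sums are therefore a description, and the tests are those of the single genes.

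**Figure D1:**
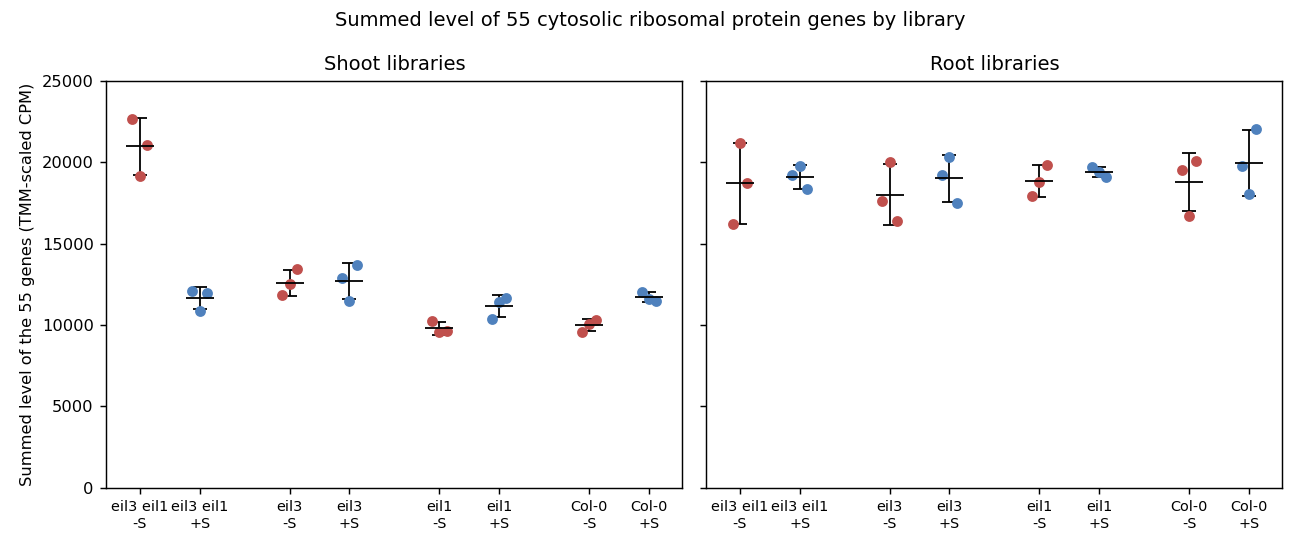
Summed level of the 55 genes in each library (TMM-scaled CPM), with shoots on the left and roots on the right; points are libraries, and bars are the mean and SD of 3. The eil3 eil1 -S shoots, at 19184 to 22685 CPM, stand above all other shoot groups; shoots and roots were scaled in separate fits, so levels are not compared between the panels.

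Within eil3 eil1 shoots, all 55 genes were higher at -S than at +S when edgeR's quasi-likelihood p-values were adjusted over all loci by the Benjamini-Hochberg method (adjusted p below 0.05). Of the 21697 loci tested, 32.5 percent were higher and 28.3 percent lower in that comparison. The median log2 fold change was 0.85 over the 55 genes and 0.02 over all loci. The smallest change was 0.38 on the log2 scale (RPL11C) and the largest 1.82 (RPP0A). All 34 large-subunit genes and all 21 small-subunit genes rose, with medians of 0.86 and 0.83. All 55 genes also had no overlap between the -S and +S libraries, against 34.9 percent of all loci that lay above without overlap. The count was 55 whichever library was left out. In the same comparison all 14 green tissue markers fell, with a summed level of 30991 to 32872 CPM in eil3 eil1 -S shoots, against 90595 to 104619 CPM in eil3 eil1 +S shoots. Their part in the results on the 55 genes was not tested, here or in the comparisons that follow.

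RPP0A (AT2G40010, chromosome 2, 16708379 to 16710772, minus strand, 4 exons) encodes uL10, the base of the ribosomal stalk to which the acidic P1 and P2 proteins bind. It had 43.1, 34.3 and 39.2 CPM in eil3 eil1 -S shoots, against 12.5, 10.5 and 10.1 CPM in eil3 eil1 +S shoots. The lowest -S library was thus well above the highest +S library. The log2 fold change was 1.82 (SE 0.14, 3.52-fold, edgeR adjusted p = 1.09e-09). Its estimated counts were not whole numbers in 42 of 48 libraries, which shows that reads were shared with other targets, and its level rests in part on how they were divided. RPP0B, by far the more abundant gene of the same family, had 1111, 1002 and 1067 CPM in eil3 eil1 -S shoots, against 595, 484 and 508 CPM in eil3 eil1 +S shoots. The RPP0B libraries did not overlap, and its log2 fold change was 1.00 (SE 0.09, edgeR adjusted p = 1.54e-08).

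RPL7D (AT3G13580, chromosome 3, 4433047 to 4435305, plus strand) encodes uL30, a large-subunit protein. It had 437, 356 and 409 CPM in eil3 eil1 -S shoots, against 145, 145 and 157 CPM in eil3 eil1 +S shoots. The lowest -S library was far above the highest +S library. The log2 fold change was 1.43 (SE 0.09, 2.69-fold, edgeR adjusted p = 1.34e-10), while its paralogs RPL7B and RPL7C changed by 0.75 each. RPL4A, which encodes uL4, a protein that lines part of the exit tunnel of the nascent chain, had 608, 577 and 606 CPM in eil3 eil1 -S shoots, against 285, 253 and 255 CPM in eil3 eil1 +S shoots. The libraries did not overlap, and the log2 fold change of RPL4A was 1.18 (edgeR adjusted p = 2.16e-10).

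RPSaB (AT3G04770, chromosome 3, 1309273 to 1311129, minus strand) encodes uS2 of the small subunit and is the minor of 2 RPSa genes. It had 30.9, 25.2 and 30.7 CPM in eil3 eil1 -S shoots, against 10.7, 11.5 and 11.2 CPM in eil3 eil1 +S shoots. The libraries did not overlap, and the log2 fold change was 1.38 (SE 0.09, 2.60-fold, edgeR adjusted p = 1.21e-10). RPSaA, the major gene, had 592, 550 and 602 CPM in eil3 eil1 -S shoots, against 372, 334 and 351 CPM in eil3 eil1 +S shoots. Its log2 fold change of 0.72 was about that of the other small-subunit genes.

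RPS6A (AT4G31700, chromosome 4, 15345979 to 15347804, minus strand) and RPS6B (AT5G10360) encode eS6, the small-subunit protein that S6 kinase phosphorylates downstream of TOR. RPS6A had 784, 640 and 709 CPM in eil3 eil1 -S shoots, against 304, 280 and 308 CPM in eil3 eil1 +S shoots. RPS6B had 773, 638 and 725 CPM in eil3 eil1 -S shoots, against 404, 377 and 401 CPM in eil3 eil1 +S shoots. Neither gene had overlapping libraries, and the log2 fold changes were 1.26 for RPS6A (SE 0.09, edgeR adjusted p = 2.18e-10) and 0.85 for RPS6B (SE 0.08, edgeR adjusted p = 1.55e-08). RPS5A, a gene of uS7, and its paralog RPS5B changed by 0.91 and 0.89. The RPS18 genes, which encode uS13 and of which RPS18A is known as POINTED FIRST LEAF, changed by 0.76 (RPS18A), 0.89 (RPS18B) and 0.83 (RPS18C).

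The smallest changes were in the large-subunit families RPL11 and RPL9. RPL11C (AT4G18730, chromosome 4, 10302163 to 10303432, plus strand) encodes uL5, a protein next to the 5S ribosomal RNA. It had 212, 167 and 185 CPM in eil3 eil1 -S shoots, against 147, 137 and 150 CPM in eil3 eil1 +S shoots. The gap between the groups was narrow but the libraries did not overlap, and the log2 fold change was 0.38 (SE 0.09, edgeR adjusted p = 0.00164). RPL9B and RPL9C, 2 genes of uL6 with 99.2 percent identical coding sequence and the same protein, changed by 0.54 and 0.49. Their counts were not whole in 47 of 48 libraries, so the division between them is uncertain. RPL10A, the major gene of uL16, changed by 0.79, and RPL24B, the gene of eL24 known as SHORT VALVE1, by 1.02.

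**Figure D2:**
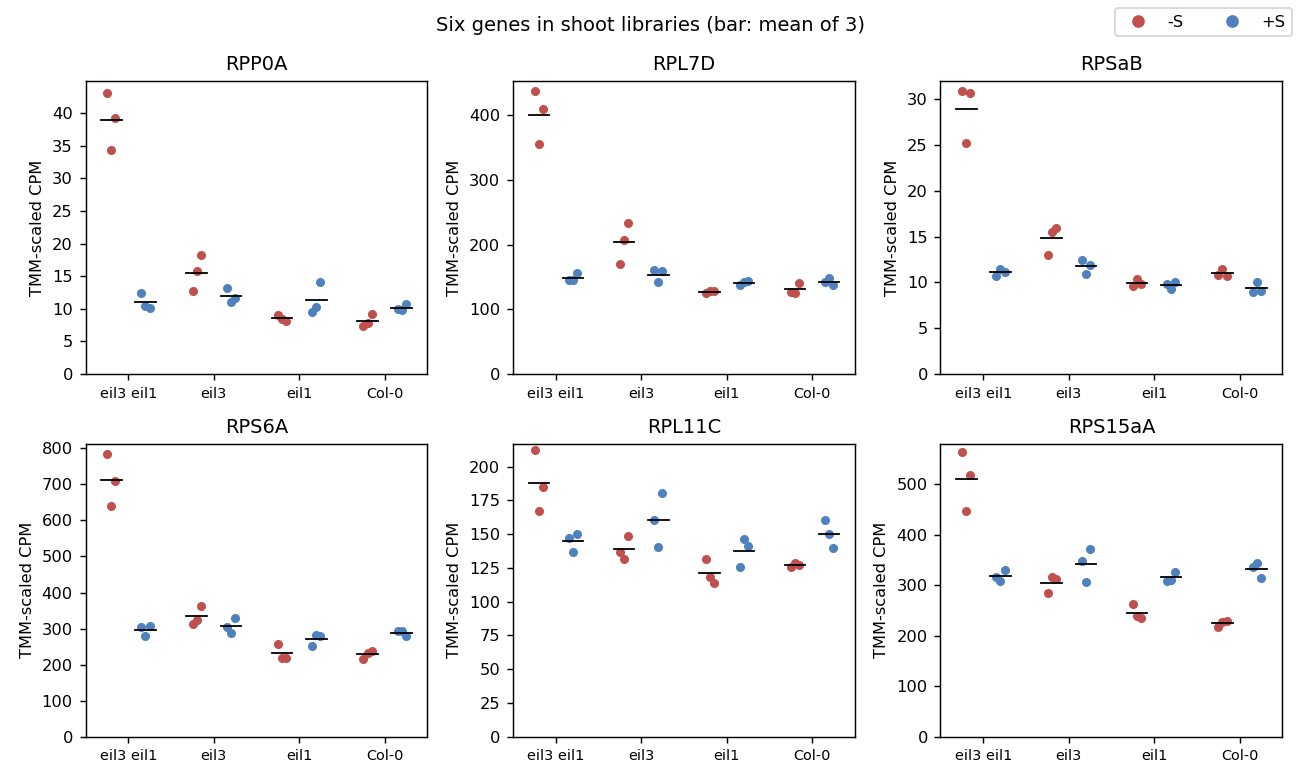
Levels of 6 members in the 24 shoot libraries (TMM-scaled CPM); red points are -S libraries, blue points +S libraries and bars the mean of 3. RPP0A, RPL7D, RPSaB and RPS6A have their eil3 eil1 -S libraries apart from all other shoots, RPL11C shows a narrow gap, and RPS15aA is low in Col-0 -S shoots at 217 to 230 CPM.

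In Col-0 shoots low sulfate went with lower levels of many members. By edgeR 2 genes were higher and 30 lower at -S, against 16.9 percent of all loci higher and 17.9 percent lower. The median log2 fold change was -0.24 over the 55 genes and 0.00 over all loci, and no member reached a change of 1 on the log2 scale. Of the large-subunit genes 18 of 34 were lower and 0 higher (unadjusted p below 0.05 in 21 lower and 0 higher), and of the small-subunit genes 12 of 21 were lower and 2 higher. Without overlap of libraries, 44 members lay below and 2 above, against 23.8 and 23.9 percent of all loci. When counts were scaled by library totals, 3 members were higher and 12 lower in Col-0 shoots, and under that scaling the median of all loci stood at 0.12. The count fell to 19 without the first Col-0 -S shoot library and to 20 without the first Col-0 +S shoot library. All 14 green tissue markers fell here too, with 59126 to 71519 CPM in Col-0 -S shoots, against 102995 to 123951 CPM in Col-0 +S shoots.

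RPS15aA (AT1G07770, a gene of uS8) had 217, 227 and 230 CPM in Col-0 -S shoots, against 336, 344 and 315 CPM in Col-0 +S shoots. The libraries did not overlap, and the log2 fold change was -0.56 (SE 0.08, 0.68-fold, edgeR adjusted p = 2.03e-05). RPS18A had 97.1, 101 and 104 CPM in Col-0 -S shoots, against 142, 144 and 137 CPM in Col-0 +S shoots, a log2 fold change of -0.48 (edgeR adjusted p = 0.000409). RPL12A, a gene of uL11 at the base of the stalk, had 107, 112 and 120 CPM in Col-0 -S shoots, against 156, 164 and 153 CPM in Col-0 +S shoots, and also changed by -0.48. RPL11A followed at -0.46. Its counts were not whole in any of the 48 libraries.

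The 2 genes that rose in Col-0 shoots are both minor members of their families. RPS27A (AT2G45710) encodes eS27 and is not the ubiquitin fusion gene that bears this name in mammals. It had 19.9, 20.8 and 23.3 CPM in Col-0 -S shoots, against 19.5, 17.0 and 15.8 CPM in Col-0 +S shoots, a log2 fold change of 0.29 (edgeR adjusted p = 0.0200). RPSaB had 10.8, 11.5 and 10.7 CPM in Col-0 -S shoots, against 8.93, 10.01 and 9.09 CPM in Col-0 +S shoots, a log2 fold change of 0.24 (edgeR adjusted p = 0.0496). For both genes the gap between the groups was small. Both RPS6 genes fell, with RPS6A at -0.34 and RPS6B at -0.28, as did RPS5A at -0.34 and RPL10B at -0.43, while RPL4A, at -0.11, and RPL10A, at -0.02, did not pass the test.

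The eil1 shoots had 0 members higher and 18 lower at -S by edgeR (unadjusted p below 0.05 in 0 higher and 31 lower), against 14.4 percent of all loci higher and 12.9 percent lower. The median over the 55 genes was -0.19. The largest changes were in RPP0A (-0.41, edgeR adjusted p = 0.0383), RPL11A (-0.39), RPP1C, a gene of the acidic stalk protein P1 (-0.37), and RPS15aA (-0.36). RPP0A had 9.06, 8.41 and 8.13 CPM in eil1 -S shoots, against 9.58, 10.3 and 14.1 CPM in eil1 +S shoots, where 1 library was high. The count of lower members depended on single libraries: it was 5 and 3 without the second and the third eil1 -S library, and 7 and 6 without the second and the third eil1 +S library. It was 5 with library totals as the scale. The green tissue markers summed to 70873 to 82557 CPM in eil1 -S shoots, against 98865 to 113669 CPM in eil1 +S shoots, and 9 of 14 fell.

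In eil3 shoots 3 members were higher and 1 lower at -S by edgeR, against 18.1 percent of all loci higher and 16.6 percent lower, and the median was -0.02, whereas with library totals as the scale 27 were higher and 0 lower and the median was 0.21 over the 55 genes and 0.25 over all loci. RPL7D had 170, 207 and 234 CPM in eil3 -S shoots, against 160, 142 and 159 CPM in eil3 +S shoots. The -S libraries were all higher, and the log2 fold change was 0.41 (SE 0.09, edgeR adjusted p = 0.00174). RPP0A (0.38, edgeR adjusted p = 0.0424) and RPSaB (0.33, edgeR adjusted p = 0.00669) were the others that rose, so the same 3 genes had the largest changes in eil3 shoots as in eil3 eil1 shoots. RPP1B had 70.7, 77.4 and 77.0 CPM in eil3 -S shoots, against 91.7, 77.8 and 103 CPM in eil3 +S shoots, a log2 fold change of -0.27 (edgeR adjusted p = 0.0280). The count was 2 without the third eil3 -S library, 2 without the third eil3 +S library and 7 without the second eil3 +S library. All 14 green tissue markers fell, with 41072 to 59096 CPM in eil3 -S shoots, against 102270 to 124775 CPM in eil3 +S shoots.

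**Figure D3:**
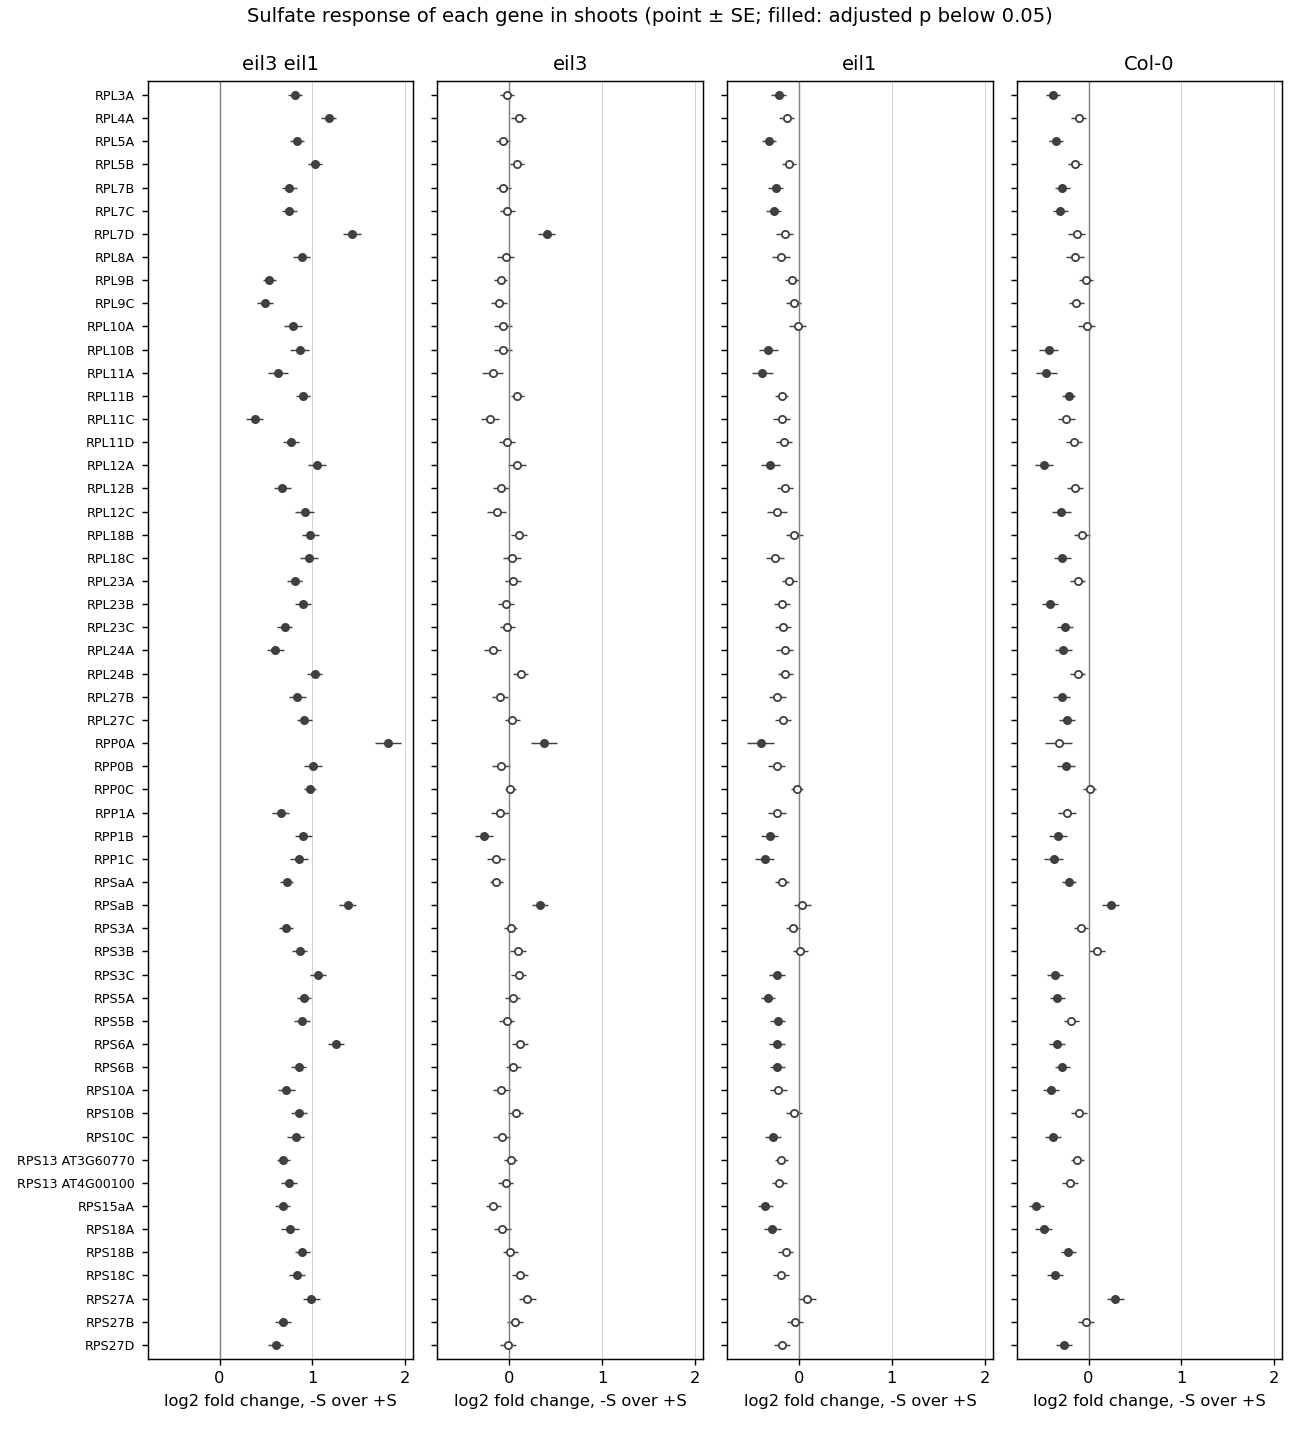
Log2 fold change of each of the 55 genes, -S over +S, in shoots of the 4 genotypes; points are edgeR estimates with their SE, filled where the adjusted p was below 0.05. All 55 points of eil3 eil1 are filled and lie between 0.38 and 1.82, whereas those of Col-0 lie between -0.56 and 0.29.

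The order of the members was compared across genotypes as a description, over the same 55 genes and with the dispersion estimates shared by the fit. The changes in eil3 and in eil3 eil1 shoots had a Pearson correlation of 0.78 and a Spearman correlation of 0.64 across genes. Between eil1 and Col-0 shoots the values were 0.88 and 0.86. Between eil3 and Col-0 shoots they were 0.42 and 0.36, and between eil3 eil1 and Col-0 shoots 0.12 and 0.06. Genes are not independent replicates, and paralogs share reads.

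The difference between genotypes in the sulfate response was itself tested as an interaction. In eil3 eil1 shoots the response was more positive than in Col-0 shoots for all 55 members, with a median difference of 1.11 on the log2 scale. Of all 21697 loci tested, 36.9 percent differed in either direction, 4336 with a more positive response and 3673 with a more negative one. The largest differences were those of RPP0A (2.14, edgeR adjusted p = 1.24e-07), RPS6A (1.59), RPL7D (1.55) and RPL12A (1.53). The smallest was 0.56 (RPL9B). In eil3 shoots 4 members had a more positive response than in Col-0 shoots and 0 a more negative one (unadjusted p below 0.05 in 22 and 0), against 0.747 percent and 1.03 percent of all loci. These were RPL12A (0.56, edgeR adjusted p = 0.0402), RPL7D (0.53), RPS18C (0.48) and RPS3C, a gene of uS3 (0.46). All 4 had adjusted p between 0.0388 and 0.0477, and the count was 0 without any 1 of 8 libraries of these groups, 1 without the second or the third Col-0 -S library and 8 without the first eil3 -S library. RPP0A had a larger difference, 0.70, but did not pass (edgeR adjusted p = 0.0853). In eil1 shoots 0 members differed from Col-0 by edgeR (unadjusted p below 0.05 in 0, DESeq2 0), where 0.0230 percent of all loci did, and the median difference was 0.03. The median difference of the green tissue markers was -1.12 in eil3 eil1 (12 of 14 more negative), -0.38 in eil3 and 0.27 in eil1 shoots.

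The response of eil3 eil1 shoots was also set against that of eil3 shoots, a comparison added after the data were seen. All 55 members had a more positive response in eil3 eil1 than in eil3 shoots, with a median difference of 0.86 and a range of 0.58 (RPL11C) to 1.44 (RPP0A), against 14.8 percent of all loci more positive and 11.2 percent more negative. Of the green tissue markers 10 of 14 had a more negative response, with a median difference of -0.69. After RPP0A, the largest differences were in RPP1B (1.17), RPS6A (1.14) and RPP0B (1.09).

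At -S all 55 members were higher in eil3 eil1 than in Col-0 shoots, with a median log2 fold change of 1.12, against 27.4 percent of all loci higher and 26.1 percent lower. RPP0A had 43.1, 34.3 and 39.2 CPM in eil3 eil1 -S shoots, against 7.41, 7.87 and 9.22 CPM in Col-0 -S shoots, a log2 fold change of 2.25 (edgeR adjusted p = 1.31e-10). RPS6A followed at 1.64, RPL7D at 1.61 and RPL12A at 1.54. In eil3 -S shoots 46 members were higher than in Col-0 -S shoots and 0 lower (unadjusted p below 0.05 in 51 and 0), against 8.85 percent of all loci higher and 8.69 percent lower. The median was 0.34, with RPP0A at 0.93, RPL7D at 0.63, RPL12A at 0.63 and RPS6A at 0.55. The count was 28 without the first Col-0 -S library and 26 without the third eil3 -S library. The 9 that did not pass were RPL9B, RPL9C, RPL10A, RPL11C, RPL12B, RPP1A, RPSaA, RPS27A and RPS27B. Both comparisons share the Col-0 -S libraries. Set directly against eil3 -S shoots, in a comparison added after the data were seen, all 55 members were higher in eil3 eil1 -S shoots, with a median of 0.74, against 21.1 percent of all loci higher and 17.0 percent lower. In eil1 -S shoots 0 members differed from Col-0 -S shoots by edgeR (unadjusted p below 0.05 in 0, DESeq2 0), against 0.530 percent of all loci, and the median was -0.03. At -S the green tissue markers had a median log2 fold change of -1.24 in eil3 eil1 and -0.40 in eil3 shoots against Col-0 shoots, and of -0.84 in eil3 eil1 against eil3 shoots.

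At +S few members differed between genotypes in shoots. In eil3 eil1 +S shoots 0 members differed from Col-0 +S shoots by edgeR (unadjusted p below 0.05 in 1, DESeq2 0), against 7.54 percent of all loci, and the median was 0.01. In eil3 +S shoots 3 members were higher than in Col-0 +S shoots and 0 lower (unadjusted p below 0.05 in 10 and 0), against 2.47 percent of all loci higher and 4.66 percent lower. These were RPP0C (0.34, edgeR adjusted p = 0.00395), RPSaB (0.34, edgeR adjusted p = 0.0292) and RPS3B (0.27, edgeR adjusted p = 0.0484). The count was 1 without the first or the third Col-0 +S library and 1 without the first eil3 +S library. In eil1 +S shoots 0 members differed from Col-0 +S shoots by edgeR (unadjusted p below 0.05 in 0, DESeq2 0), against 1.26 percent of all loci.

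In roots no member passed the test at low sulfate in any genotype. The summed level was 16211, 21209 and 18709 CPM in eil3 eil1 -S roots, against 19218, 19797 and 18341 CPM in eil3 eil1 +S roots, and the libraries overlapped. Over all root groups the mean sum lay between 18020 CPM (eil3 -S) and 19961 CPM (Col-0 +S). By edgeR and by DESeq2, 0 members were called at -S against +S in roots of eil3 eil1, eil3, eil1 and Col-0. The unadjusted p was below 0.05 in 1 higher and 3 lower members in Col-0 roots and in 0 in the other genotypes. Of the 21954 loci tested in roots, 3.89 percent were called in eil3 eil1, 1.06 percent in eil3, 1.92 percent in eil1 and 9.03 percent in Col-0. The medians over the 55 genes were -0.03 in eil3 eil1, -0.08 in eil3, -0.04 in eil1 and -0.09 in Col-0 roots.

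Single values of genes with large changes in eil3 eil1 shoots are given for roots. RPP0A had 13.5, 18.3 and 16.4 CPM in eil3 eil1 -S roots, against 18.1, 18.0 and 16.2 CPM in eil3 eil1 +S roots. RPS6A had 472, 578 and 509 CPM in eil3 eil1 -S roots, against 534, 561 and 520 CPM in eil3 eil1 +S roots. The -S and +S libraries overlapped in both genes. No member differed in roots between mutants and Col-0 at either sulfate level, or in the sulfate response (edgeR 0, DESeq2 0 and unadjusted p below 0.05 in 0 members in each). Of all loci, 12.1 percent (eil3 eil1), 6.65 percent (eil3) and 2.51 percent (eil1) differed from Col-0 in -S roots, and 0.879, 2.19 and 1.24 percent did in +S roots. In the response, 3.83 percent (eil3 eil1), 0.943 percent (eil3) and 0.383 percent (eil1) of all loci differed from Col-0. For eil3 eil1 the difference between organs was tested directly, in a comparison added after the data were seen. The response of roots was more negative than that of shoots for all 55 members, with a median difference of -0.84, against 25.0 percent of all loci more negative and 22.2 percent more positive. The largest differences were in RPP0A (-1.91, edgeR adjusted p = 1.82e-06), RPL7D (-1.48), RPSaB (-1.35) and RPS6A (-1.30). In Col-0, 0 members had a response that differed between root and shoot by edgeR (unadjusted p below 0.05 in 6, DESeq2 3), against 13.2 percent of all loci. Without the third Col-0 +S root library the count was 6. The median difference was 0.13.

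The members differed widely in level, which is given here as TPM, computed from the estimated counts and the deposited target length and scaled to the same total in every library. In Col-0 +S roots the median member had 436 TPM, against 212 TPM in Col-0 +S shoots. The highest levels in roots were those of RPL27C, a gene of eL27 (1325 ± 181 TPM), RPL23C, a gene of uL14 (1003 ± 120 TPM), and RPL3A, a gene of uL3 (949 ± 87.9 TPM; SD, n = 3 each). In shoots they were those of RPL23C (602 ± 37.6 TPM), RPL27C (561 ± 30.1 TPM) and RPL10A (485 ± 50.4 TPM; SD, n = 3 each). The ranges of mean ± SD of neighbours in these orders overlapped, except those of RPL27C and RPL23C in roots. In both organs the lowest were RPP0A (15.1 TPM in roots and 7.94 TPM in shoots), RPSaB (22.1 TPM in roots and 9.44 TPM in shoots) and RPL10B (52.5 TPM in roots and 13.6 TPM in shoots). RPP0A and RPSaB, the lowest in Col-0 +S shoots, were also among the 3 largest changes of eil3 eil1 shoots, and across the 55 genes the change in eil3 eil1 shoots and log2 TPM in Col-0 +S shoots had a Pearson correlation of -0.42 and a Spearman correlation of -0.18. For 42 members the target length was nearer to that of the whole gene, introns included, than to a spliced transcript, which lowers the TPM of genes with long introns.

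Col-0 roots had more of these transcripts than Col-0 shoots at full sulfate. By edgeR 39 members were higher in roots and 0 lower, against 40.5 percent of 22301 loci higher and 35.9 percent lower. The median log2 fold change was 0.36 over the 55 genes and 0.06 over all loci. These values rest on TMM scaling, and the organ difference in TPM given above is larger. As a share of all estimated counts, the 55 genes made up 1.98 percent in Col-0 +S roots and 1.08 percent in Col-0 +S shoots. The size of the organ difference thus depends on the scaling. RPL10B, a minor gene of uL16, had 27.9, 26.1 and 34.1 CPM in Col-0 +S roots, against 12.2, 12.1 and 13.8 CPM in Col-0 +S shoots. The libraries did not overlap, and the log2 fold change was 1.21 (edgeR adjusted p = 2.03e-07). It was followed by RPP0C at 0.76, RPL11A at 0.67 and RPL4A at 0.64. At the other end, RPS18C had 271, 264 and 334 CPM in Col-0 +S roots, against 285, 301 and 277 CPM in Col-0 +S shoots, a log2 fold change of 0.01 that did not pass. Its paralogs RPS18A (0.34) and RPS18B (0.38), which encode the same protein, were higher in roots.

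Shares of paralogs within their family show which genes moved apart from their relatives. The shares are percentages of the family's summed TPM over its listed members, as mean ± SD of 3 libraries, and are a description without a test. RPS6A made up 51.5 ± 0.45 percent of the RPS6 pair in eil3 eil1 -S shoots and 44.5 ± 0.41 percent in eil3 eil1 +S shoots, against 43.0 percent in Col-0 -S shoots and 43.9 percent in Col-0 +S shoots. In Col-0 +S roots it made up 49.2 percent. RPL7D made up 27.7 ± 0.86 percent of the RPL7 genes in eil3 eil1 -S shoots and 19.3 ± 0.81 percent in eil3 eil1 +S shoots, but 15.6 percent in Col-0 +S roots. RPL12A made up 44.9 percent of its family in eil3 eil1 -S shoots and 39.8 percent in eil3 eil1 +S shoots, against 34.5 percent in Col-0 -S shoots and 39.4 percent in Col-0 +S shoots.

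RPL11C, the gene with the smallest change, made up 43.97 percent of the RPL11 genes in eil3 eil1 -S shoots and 51.3 percent in eil3 eil1 +S shoots. RPP0A had 3.22 percent of the RPP0 genes in eil3 eil1 -S shoots and 1.86 percent in eil3 eil1 +S shoots, and RPP0B held 90.03 and 91.2 percent. RPSaB had 5.83 percent of the RPSa pair in eil3 eil1 -S shoots and 3.79 percent in eil3 eil1 +S shoots. Both genes thus stayed minor members in spite of their large folds. Among listed members, some other shares differed by less than 1 percentage point between eil3 eil1 -S and +S shoots. RPS5A held 79.5 and 79.3 percent of its family, and RPS18C 50.6 and 50.4 percent. RPL10A held 96.9 and 97.005 percent of the pair RPL10A and RPL10B, which leaves out RPL10C. RPL24B, the major gene of its pair, held 70.9 percent in eil3 eil1 -S shoots and 64.5 percent in eil3 eil1 +S shoots. RPL10C (AT1G66580), another gene for uL16, is not among the 55 and is not counted in the share of RPL10A. It had 919, 786 and 770 TPM in eil3 eil1 -S shoots, against 219.8, 179 and 224 TPM in eil3 eil1 +S shoots, so the make-up of all uL16 transcripts is not given by that share. It also rose in Col-0 shoots, with 412, 386 and 638 TPM at -S, against 217, 182 and 220.03 TPM at +S. From TMM-scaled counts, not from these TPM, its log2 fold changes were 1.70 in eil3 eil1 and 1.01 in Col-0 shoots (edgeR adjusted p = 1.57e-07 and 0.000286).

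Other genes of ribosome production and translation were read from lists that were also chosen with earlier results known. Their counts stand beside 32.5 percent of all loci higher and 28.3 percent lower in eil3 eil1 shoots, and 16.9 percent higher and 17.9 percent lower in Col-0 shoots. Of 155 other cytosolic ribosomal protein genes tested, 153 rose and 0 fell in eil3 eil1 shoots, with a median of 0.82, and 5 rose and 59 fell in Col-0 shoots, with a median of -0.18. AT5G39850, annotated as a ribosomal protein S4, had log2 fold changes of 2.60 in eil3 eil1 and 1.19 in Col-0 shoots. Of 30 ribosome biogenesis genes, which act in processing ribosomal RNA and assembling the subunits, all 30 rose in eil3 eil1 shoots with a median of 1.2. In Col-0 shoots 18 of the 30 rose and 0 fell (unadjusted p below 0.05 in 0 lower), with a median of 0.26, opposite in sign to the ribosomal protein genes. AT3G05060, a NOP56-like gene of pre-ribosomal RNA processing, changed by 1.55 and AT3G16810 by 1.58 in eil3 eil1 shoots, and AT3G16810 by 0.52 in Col-0 shoots. Of 19 translation factors, 18 rose and 0 fell in eil3 eil1 shoots (median 0.81, with AT1G07940, a gene of the EF-Tu family, at 1.38), and 2 rose and 7 fell in Col-0 shoots. Of 7 TOR pathway genes 4 rose and 1 fell in eil3 eil1 shoots, a count of few genes that is not read against those shares, and the kinase gene S6K2 rose both there (0.58) and in Col-0 shoots (0.89). All 3 RACK1 genes, which encode a scaffold protein on the small subunit, rose in eil3 eil1 shoots, with a median of 1.02.

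Ribosomal proteins of the plastid are encoded in the nucleus by a separate set of genes, and all 29 of those listed fell in shoots of every genotype. Their medians were -0.75 in eil3 eil1, -0.78 in eil3, -0.44 in eil1 and -0.65 in Col-0 shoots. Of 8 root markers, 7 fell and 0 rose in eil3 eil1 shoots (unadjusted p below 0.05 in 0 higher), with a median of -1.73. Their summed level was 530 CPM in eil3 eil1 -S shoots and 457 CPM in eil3 eil1 +S shoots, against 11428 CPM in eil3 eil1 -S roots. Over all shoot libraries PYK10 averaged 245 TPM and the other root markers 0.33 to 6.36 TPM. The sum in shoots is thus mostly PYK10, and the median is mostly of genes at very low levels.

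**Figure D4:**
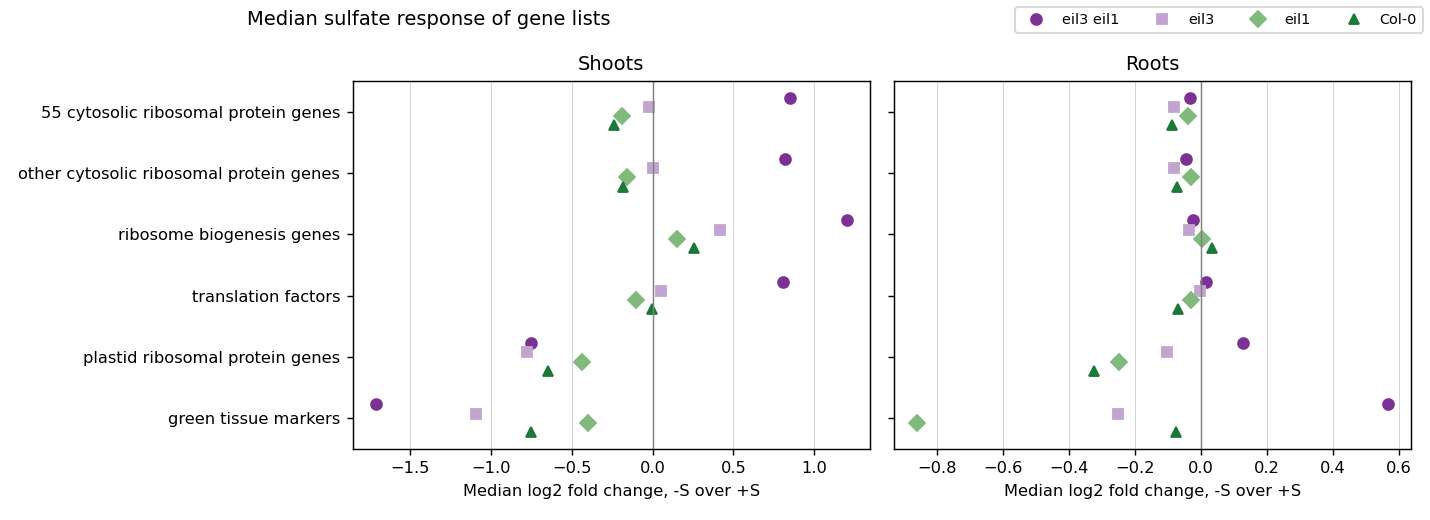
Median log2 fold change, -S over +S, of 6 gene lists in shoots (left) and roots (right), 1 symbol per genotype. In eil3 eil1 shoots the 4 lists of cytosolic ribosome and translation genes lie between 0.81 and 1.2 and the plastid ribosomal and green tissue lists below 0, and in roots, on a narrower axis, the first 4 lists lie near 0 in every genotype.

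The promoters of the 55 genes were searched for both motifs in the 250 bases before each annotated start, on both strands, and in 27443 promoters of all genes. A site II element was present in 41 of 55 members (74.5 percent), in 65.8 percent of 164 other cytosolic ribosomal protein genes and in 19.2 percent of all promoters. A telo-box was present in 9 of 55 members (16.4 percent), in 21.3 percent of the other cytosolic ribosomal protein genes and in 4.49 percent of all promoters. Both motifs together were found in 6 members. The 97 site II occurrences lay at a median of 56 bases before the start, and the 10 telo-boxes at a median of 27.5 bases. The change in eil3 eil1 shoots had a median of 0.86 in the 41 members with a site II element and 0.81 in the 14 without, and of 0.84 in the 9 members with a telo-box and 0.85 in the 46 without. RPP0A, with 2 site II elements, had the largest change, but RPL7D, with the next largest, had neither motif in this window. The matches are letters in a window and show no binding.

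**Figure D5:**
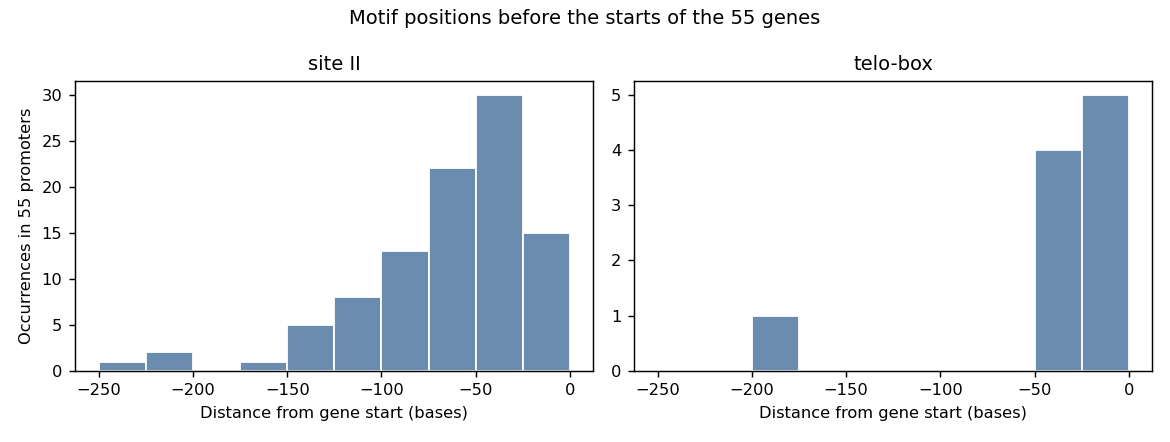
Positions of site II elements (left) and telo-boxes (right) before the annotated starts of the 55 genes, as occurrences per 25-base bin against distance from the start in bases. Of the 97 site II occurrences 93, and of the 10 telo-boxes 9, lie within 150 bases of the start.

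Among the 43 pairs of paralogs, coding identity ranged from 68.4 percent (RPSaA and RPSaB) to 99.2 percent (RPL9B and RPL9C), with a median of 85.0 percent. In 10 pairs the encoded proteins were the same (RPL9B and RPL9C, RPL11B to RPL11D, RPL23A to RPL23C and RPS18A to RPS18C). Paralogs that encode the same protein did not always change alike in size: RPL11B, RPL11C and RPL11D changed by 0.90, 0.38 and 0.77 in eil3 eil1 shoots, and RPL23A, RPL23B and RPL23C by 0.81, 0.90 and 0.70. These differences between paralogs were not tested.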

How the data were processed

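RNA-seq libraries were prepared with a stranded mRNA kit, per the labels' protocols. Trimmomatic 0.36, FastQC, kallisto 0.43.1 and TAIR10 are named in the submitters' processing notes. The deposited table gives estimated counts per target, of which 7.79 percent are fractional, and they were rounded for the tests. A further 48 columns of per-sample values, the authors' TPM, were not used, because shoot columns could be tied to a group but not to a sample. TPM were computed here from the estimated counts and the deposited target lengths.

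Each organ was fitted on its 24 libraries with edgeR 4.0.16 (R 4.3.3, limma 3.58.1), TMM scaling, a filterByExpr minimum count of 10, and Benjamini-Hochberg adjustment over all loci at 0.05. Organs were compared in fits of 12 libraries of 1 genotype. Alternatives were DESeq2 1.42.0, its size factors, library totals, no filter, leaving out each library and, in roots, a replicate block. The p-values rest on the spread between replicates, 3 per group, estimated over all groups of a fit together.

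The members and all gene lists were chosen with earlier results of these data known. There were 28 planned comparisons, and 3 were added after the data were seen. Named genes were up to 4 with the largest change per direction among those called, the 3 highest and 3 lowest levels per organ, and a fixed set of genes and paralog shares. Coordinates are those of TAIR10.1 in RefSeq and were not mixed with the table, which has none. Figures used matplotlib 3.10.9.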

Additional observations from a re-analysis of the deposited data

Results flagged for a closer look

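The sulfate response differed between genotypes or organs by a test of the difference itself in 4 comparisons, all with edgeR's adjusted p below 0.05 for the genes named. In eil3 shoots 4 members had a more positive response than in Col-0 shoots, where 0.747 percent of all loci were more positive and 1.03 percent more negative. The differences were 0.56 for RPL12A, 0.53 for RPL7D, 0.48 for RPS18C and 0.46 for RPS3C on the log2 scale. Their edgeR adjusted p lay between 0.0388 and 0.0477. Leaving out 1 library gave counts of 0 to 8, so these calls depended on single libraries.

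In eil3 eil1 shoots all 55 members differed from Col-0 shoots, with RPP0A at 2.14, RPS6A at 1.59, RPL7D at 1.55 and RPL12A at 1.53, where 36.9 percent of all loci differed. Against eil3 shoots all 55 differed as well, with RPP0A at 1.44, RPP1B at 1.17, RPS6A at 1.14 and RPP0B at 1.09, where 14.8 percent of all loci were more positive and 11.2 percent more negative.

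Within eil3 eil1 the response of roots minus that of shoots was negative for all 55 members, with RPP0A at -1.91, RPL7D at -1.48, RPSaB at -1.35 and RPS6A at -1.30, where 25.0 percent of all loci were more negative and 22.2 percent more positive. Green tissue markers fell in the same shoots, and their part in these differences was not tested.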

How the results depend on the processing

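All 55 members were called in each eil3 eil1 shoot comparison at low sulfate under every alternative run, and leaving out 1 library gave 55 to 55 for each. For the root-minus-shoot difference of eil3 eil1, leaving out 1 library gave 54 to 55, DESeq2 54 and its size factors 53. With library totals as the scale, the counts were 15 in Col-0 shoots (3 higher and 12 lower), 5 in eil1 shoots, 27 in eil3 shoots (27 higher), 11 for the eil3 response against Col-0 and 1 for eil3 eil1 against Col-0 in +S shoots. That scaling moved the median of all loci to 0.12 in Col-0, 0.25 in eil3 and 0.19 in eil3 eil1 shoots. The summed level was also taken as TPM. Its means at -S and +S were 12824 and 13058.9 in Col-0 shoots and 12594.5 and 13181.7 in eil1 shoots. They were 18027.4 and 14411.9 in eil3 shoots and 30332.9 and 13859.5 in eil3 eil1 shoots. By TPM the -S and +S libraries overlapped in Col-0 and eil1 shoots. Every -S library lay above every +S library in eil3 and in eil3 eil1 shoots. For the eil3 response against Col-0, DESeq2 gave 9, no filter 2 and DESeq2's size factors 2, and for the Col-0 organ difference DESeq2 gave 3. The cause of these differences was not tested. Leaving out 1 library gave 19 to 27 in Col-0 shoots, 3 to 21 in eil1 shoots, 2 to 7 in eil3 shoots, 0 to 8 for the eil3 response against Col-0, 26 to 45 for eil3 against Col-0 at -S, 1 to 4 at +S, 0 to 6 for the Col-0 organ difference and 34 to 44 for root against shoot. The value 6 came without the third Col-0 +S root library, and 8 without the first eil3 -S shoot library. All other comparisons gave 0 to 0. Among single members, 139 values lost their call under an alternative and 0 changed direction as a called value. The replicate block was fitted in roots, where the count was 0 in every comparison. Same-numbered root libraries correlated between -0.37 and 0.31 in their deviations, with 32 of 84 pairs over 0.1. The mean correlation was 0.05 for same-numbered pairs and -0.03 for other pairs, and 17 of 24 libraries correlated best with their own number. These values do not settle whether the numbers pair the samples, and the main fit took no account of them. Shoots were not blocked because their column numbers are not tied to the sample titles. Libraries held 26615772 to 38269946 estimated counts. With 3 libraries per group, several counts depended on single libraries, and 22 of 55 members had counts that were not whole in at least 1 library, so their levels rest in part on how shared reads were divided.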
